A study of Homo sapiens with 6 samples.

Results

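The heat shock proteins and their DNAJ co-chaperones were followed in 143B cells, a human osteosarcoma line, with and without CNTNAP4. Members were taken by symbol: every gene named HSPA, HSPB, HSPD, HSPE, HSPH, HSP90A, DNAJA, DNAJB or DNAJC, with the transcription factors HSF1 and HSF2. HSPA5, DNAJB9, DNAJB11, DNAJC3 and DNAJC10, which serve the endoplasmic reticulum (ER), were left out by the rule and appear only for comparison. This gave 172 of the 54308 genes listed, of which 70 code for protein and 102 are pseudogenes. No library held a value for 103 of them, namely 100 pseudogenes and DNAJB7, DNAJB8 and HSPB3. A further 6 had too few values to test, and 63 members were tested, of which 60 had a value in all 6 libraries and 1, HSP90AB4P, is a pseudogene.

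The study asked what deleting CNTNAP4, a cell surface protein of the neurexin superfamily, does to osteosarcoma cells. The 3 vector control (VC) libraries came from 143B cells given a vector plasmid, and the 3 CNTNAP4 knockout (KO) libraries came from 143B cells given a CRISPR/Cas9 plasmid against the gene. Both groups had the same medium, serum and transient transfection, and transfection lasted 48 h by the labels or 72 h by the methods, which then describe sorted colonies grown from single cells. The methods describe 2 expanded KO colonies, and which colony gave which KO library is not stated, so the 3 KO libraries may share a clone and the p-values measure the spread between these libraries. The authors deposited quantile-normalized log2 signals. The linear unit behind the log2 scale and the sequencing depth are not given, so no counting error could be computed, and levels of different genes are not compared with each other. The only CNTNAP4 value, -7.18 in VC replicate 3, lay far below the library median of 0.62, so the signal of the deleted gene gives no check of the labels. Of 14 mesenchymal and osteoblast markers, 11 had a value in every library and 9, RUNX2 among them, lay above the median of all genes. Their summed linear signal was 1452 to 1629 in VC and 1744 to 2152 in KO, most of it from VIM. The means in VC and KO were -1.27 and -0.69 for ALPL, -4.81 and -5.62 for COL1A2 and -7.09 and -7.14 for SP7. BGLAP had no VC value and IBSP no value. So mesenchymal markers were present, while several osteoblast markers were low or missing. Of 12 markers of other cell types, 3 lay above that median, and their summed signal was 509 to 561 in VC and 487 to 524 in KO. Of the other markers above the median, EPCAM fell by 0.67 and CD68 rose by 1.66 on the log2 scale and KRT18 did not pass, while PTPRC lay under -4 in every library and CDH1 had a value in VC replicate 2 alone. The part of these markers in the chaperone results was not tested. Changes in the share of any cell state and in RNA per cell cannot be told apart in bulk RNA.

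Heat shock proteins keep other proteins folded. In the cytosol, HSP70 proteins bind exposed hydrophobic stretches of a client in a cycle driven by ATP, J-domain proteins of the DNAJ families deliver clients and stimulate the ATPase, and HSP110 proteins exchange the nucleotide so that the client is released, often to HSP90. Mitochondria carry their own HSP70 and a barrel-shaped chaperonin built of HSPD1 and HSPE1. When unfolded proteins build up in the cytosol, HSF1 forms trimers and binds heat shock elements, inverted repeats of the unit GAAnn, in the promoters of many of these genes. The ER has its own chaperones, whose genes answer to a separate pathway, the unfolded protein response, in part through the ER stress element.

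Promoters are shown for 5 genes because they display these elements in members that fell, in a member that did not, and in an ER chaperone. The sequences are the 250 bases before the RefSeq start site on GRCh38.p14, written 5′ to 3′ on the strand of the gene, with capitals marking each match to GAA-NN-TTC or TTC-NN-GAA, the 2-unit heat shock element, or in HSPA5 to the ER stress element, CCAAT and CCACG with 9 bases between them (N stands for any base). HSPA8 lies at chr11:123062137-123062386 on the minus strand, HSPA1A at chr6:31815293-31815542 on the plus strand, DNAJB6 at chr7:157336754-157337003 on the plus strand, HSPA6 at chr1:161524290-161524539 on the plus strand and HSPA5 at chr9:125241344-125241593 on the minus strand.
HSPA8: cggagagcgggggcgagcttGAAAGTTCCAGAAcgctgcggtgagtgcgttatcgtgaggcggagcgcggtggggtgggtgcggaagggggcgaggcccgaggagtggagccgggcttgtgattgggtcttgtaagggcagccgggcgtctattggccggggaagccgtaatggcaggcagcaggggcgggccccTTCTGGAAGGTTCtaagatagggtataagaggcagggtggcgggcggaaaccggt
HSPA1A: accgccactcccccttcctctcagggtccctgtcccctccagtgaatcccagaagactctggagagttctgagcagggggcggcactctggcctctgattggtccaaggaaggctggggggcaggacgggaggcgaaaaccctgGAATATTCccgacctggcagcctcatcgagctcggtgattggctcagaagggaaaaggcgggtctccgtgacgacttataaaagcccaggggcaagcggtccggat
DNAJB6: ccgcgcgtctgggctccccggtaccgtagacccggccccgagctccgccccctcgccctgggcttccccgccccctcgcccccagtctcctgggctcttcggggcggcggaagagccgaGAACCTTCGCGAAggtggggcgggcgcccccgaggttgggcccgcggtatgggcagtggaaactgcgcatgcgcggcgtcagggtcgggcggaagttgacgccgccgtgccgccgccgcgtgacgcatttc
HSPA6: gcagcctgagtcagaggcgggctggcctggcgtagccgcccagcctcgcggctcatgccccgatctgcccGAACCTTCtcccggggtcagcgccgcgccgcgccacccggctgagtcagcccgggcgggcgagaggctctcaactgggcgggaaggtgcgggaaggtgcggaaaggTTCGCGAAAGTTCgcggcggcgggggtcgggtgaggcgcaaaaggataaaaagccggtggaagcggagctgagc
HSPA5: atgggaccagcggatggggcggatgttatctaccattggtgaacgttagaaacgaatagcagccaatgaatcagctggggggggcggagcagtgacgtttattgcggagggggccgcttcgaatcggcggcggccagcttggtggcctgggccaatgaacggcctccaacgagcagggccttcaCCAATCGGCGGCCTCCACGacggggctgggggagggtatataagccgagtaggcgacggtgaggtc

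Across windows of 300 bases, from 250 before to 50 after the start, 13.7% of all 27305 promoters in the RefSeq table held a 2-unit element on either strand. Among all genes tested that had an entry the share was 10.4%, against 12 of the 56 members tested that had one (21.4%). The longer 3-unit element, GAA-NN-TTC-NN-GAA or TTC-NN-GAA-NN-TTC, contains overlapping 2-unit matches. It stood in 0.487% of all promoters, in 0.357% of genes tested with an entry and in 4 members, HSPA8, DNAJB6, DNAJA1 and HSPA6. Of the 12 members with a 2-unit match, 8 were lower in KO, and of the 44 without one, 18 were lower. Among the 17 members taken as induced by heat the shares ran the other way. Of the 8 that hold a match 5 were lower (median log2 fold change of the 8, -0.85). Of the 9 that lack one 8 were lower (median of the 9, -1.06). Over all genes tested with a promoter entry, 20.2% of the 1398 holding a match and 20.5% of the 12043 lacking one were lower in KO. None of these splits was tested. HSPA1A and HSPA1L are transcribed away from each other, their windows overlap by 241 bases, and the match in capitals in HSPA1A, at chr6:31815437-31815444, is the same site in both. HSPD1 and HSPE1 also face away from each other with windows that overlap by 204 bases, and no 2-unit match stands there. None of the 56 members held the ER stress element, which was found in 0.0806% of all promoters and, among the 5 ER genes left out by the rule, in HSPA5. These matches describe letters in fixed windows and do not show binding.

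Most members that changed fell. By limma's moderated test with Benjamini-Hochberg adjustment over all genes, 32 of the 63 members passed an adjusted p of 0.05 where 32.9% of all genes tested did. They divided into 27 lower in KO, which is 42.9% of members beside 19.8% of all genes, and 5 higher, which is 7.94% beside 13.1%. At least 2-fold lower were 12 members, or 19.0%, where 5.43% of all genes were, and no member was at least 2-fold higher. The median log2 fold change, KO against VC, was -0.29 over the members and -0.13 over all genes tested. All KO values lay under all VC values in 33 of the 60 members with full values, beside 36.7% of genes, and over them in 10, beside 22.6%. Since strongly expressed genes were called more often, the counts were also taken among genes in the upper 50% of mean signal. There, 23 of 49 members, or 46.9%, were lower beside 35.6% of genes, and 7, or 14.3%, were at least 2-fold lower beside 1.9%. The median log2 fold change there was -0.14 over the members and -0.087 over all genes, and with 1 added to each linear signal it was -0.11 and -0.023.

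These calls depended on single libraries. Leaving out VC replicate 1, 2 or 3 or KO replicate 3 left 3, 6, 2 and 3 members lower in KO, and leaving out KO replicate 1 or 2 left 28 and 21. The share of all genes called lower moved in the same fits to 3.47%, 7.45%, 3.05% and 5.54% and to 31.0% and 14.3%. HSP90AA1 and DNAJC5 were the members that stayed lower in all 6 fits.

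**Figure D1:**
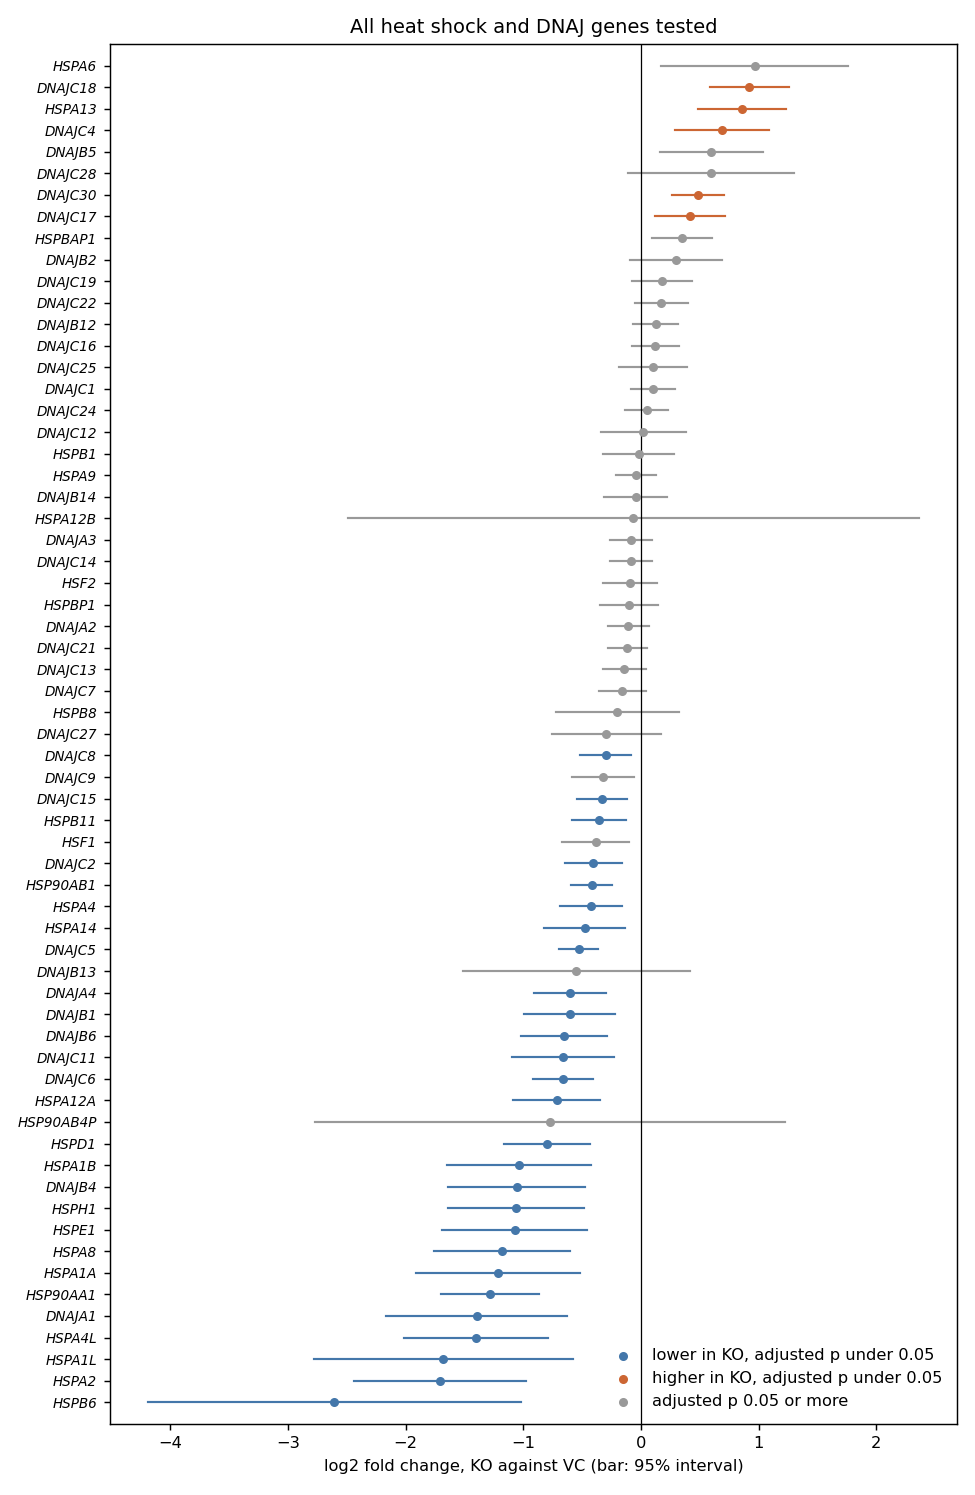
Log2 fold change of each of the 63 members tested (points) with its 95% interval from limma (bars), KO against VC, ordered by size. Blue marks the 27 members lower in KO, orange the 5 higher and grey the 31 that did not pass, with HSPB6 lowest at -2.61 and DNAJC18 highest among those that passed at 0.92.

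The regulators of the response did not pass the test in the main fit. HSF1, the main activator of heat shock genes, stood at 5.94, 5.64 and 5.95 in VC replicates 1 to 3 and at 5.53, 5.37 and 5.48 in KO. The groups did not overlap, but the log2 fold change of -0.39 (SE 0.114) had an adjusted p of 0.0525. HSF1 passed in the upper 50% of mean signal (adjusted p 0.0149), with 1 added to the linear signal (0.0325) and without VC replicate 2 (0.0432). It also passed among genes with 6 values and with trend and robust moderation. It did not pass with median-centred libraries (0.0646), with a replicate block (0.0705) or without variance moderation (0.0757), so its call rested on the setting. HSF1 lies on chromosome 8, where genes in the upper 50% of mean signal had a median of -0.27 on the same scale beside -0.083 for other genes, and the part of this shift in the HSF1 value was not tested. HSF2, a related factor, had a log2 difference of -0.093 with an adjusted p of 0.455 and overlapping groups.

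The cytosolic HSP70, HSP110 and HSP90 chaperones fell together. Of the 14 tested, 12 (85.7%) were lower and none higher, beside 19.8% and 13.1% of all genes. At least 2-fold lower were 8 (57.1%), beside 5.43% of all genes, and the median log2 fold change was -1.05. With VC replicate 1, 2 or 3 or KO replicate 3 left out, 1, 3, 1 and 1 of the group were lower, at medians between -1.09 and -1.06. HSPA8, the constitutive HSC70 that also uncoats clathrin vesicles, had log2 signals of 11.58, 11.57 and 11.58 in VC and 10.78, 9.91 and 10.50 in KO. Its VC values were nearly equal and every KO value lay below them. The log2 fold change was -1.18 (SE 0.230, adjusted p 0.0205), 2.27-fold lower, and its rank in the library went from 4 in each VC library to 15, 50 and 25 in KO replicates 1, 2 and 3. In a quantile-normalized table an equal rank brings nearly equal values. The part of the normalization in the small VC spread was not tested.

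The stress-inducible HSP70 pair behaved alike. HSPA1A stood at 4.76, 4.63 and 4.72 in VC and 3.95, 2.90 and 3.62 in KO, a log2 fold change of -1.22 (SE 0.276, adjusted p 0.0286). HSPA1B stood at 5.36, 5.12 and 5.31 in VC and 4.64, 3.73 and 4.31 in KO, a log2 fold change of -1.04 (SE 0.244, adjusted p 0.0308). The 2 genes encode the same protein, and 72.6% of the 50-base windows of the HSPA1A transcript occur unchanged in HSPA1B, so how reads were split between them is uncertain and the pair is best read together. HSPA1L, whose promoter window overlaps that of HSPA1A and which is mainly known from testis, was lower by 3.21-fold (adjusted p 0.0384). HSPA2, another HSP70 known from testis, stood at 1.32, 0.91 and 1.16 in VC and -0.11, -1.16 and -0.46 in KO and was 3.26-fold lower (adjusted p 0.0157).

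HSPA6 went the other way in its values. This strictly inducible HSP70, which is nearly silent in unstressed cells, was low in every library, at -2.76, -2.98 and -3.78 in VC and -2.16, -1.91 and -2.54 in KO. All KO values lay over VC, but the log2 fold change of 0.97 (SE 0.316) had an adjusted p of 0.0653. In its transcript, 45.5% of 50-base windows also occur in the pseudogene HSPA7, which had values in VC replicates 1 and 3 alone. Its promoter, printed above, carries a 3-unit element, and that of HSPA8 carries 2.

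The atypical HSP70 members moved less. HSPA14, which works with DNAJC2 on nascent chains at the ribosome, was 1.39-fold lower (adjusted p 0.0474), and DNAJC2 was 1.32-fold lower (adjusted p 0.0308). HSPA12A, a distant HSP70 relative, was 1.64-fold lower (adjusted p 0.0228). HSPA12B had 5 values, all under -4, and a log2 fold change of -0.065 with a 95% interval from -2.49 to 2.36, so no change could be told at its level.

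All 3 HSP110 nucleotide exchange factors fell. HSPH1 stood at 5.64, 5.69 and 5.66 in VC and 5.00, 4.12 and 4.68 in KO, a log2 fold change of -1.06 (SE 0.229, adjusted p 0.0259). HSPA4L stood at 1.26, 1.43 and 1.30 in VC and 0.39, -0.54 and -0.066 in KO, a log2 fold change of -1.40 (SE 0.244, adjusted p 0.0161). HSPA4, the third member, was 1.34-fold lower (adjusted p 0.0337), with a log2 fold change of -0.42. All KO values lay under all VC values in each of them, beside 36.7% of all genes with full values.

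Both HSP90 genes fell, the inducible form further than the constitutive form. HSP90AA1, the inducible cytosolic HSP90, stood at 10.20, 10.27 and 10.21 in VC and 9.27, 8.66 and 8.91 in KO, a log2 fold change of -1.28 (SE 0.164, adjusted p 0.0101) with a 95% interval from -1.70 to -0.87. HSP90AB1, the constitutive form, stood at 9.98, 10.09 and 10.03 in VC and 9.67, 9.59 and 9.58 in KO, a log2 fold change of -0.42 (SE 0.071, adjusted p 0.0154) with an interval from -0.60 to -0.24. The difference between the 2 genes was not tested, although their intervals do not meet. HSP90AA1 and HSPA2 lie on chromosome 14, whose genes in the upper 50% of mean signal had a median log2 fold change of -0.35 beside -0.079 for other genes, and the part of that shift in their values was not tested.

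In mitochondria, the chaperonin fell while the HSP70 did not pass. HSPD1, the HSP60 barrel, stood at 9.43, 9.58 and 9.46 in VC and 8.94, 8.44 and 8.69 in KO, a log2 fold change of -0.80 (SE 0.145, adjusted p 0.0179). HSPE1, its HSP10 lid, stood at 8.80, 8.78 and 8.77 in VC and 8.15, 7.20 and 7.79 in KO, a log2 fold change of -1.07 (SE 0.245, adjusted p 0.0289). HSPA9, the mitochondrial HSP70 called mortalin, stood at 7.20, 7.32 and 7.28 in VC and 7.21, 7.23 and 7.25 in KO, with a log2 fold change of -0.039 and a 95% interval from -0.21 to 0.13. A 2-fold fall like that of HSPE1 is outside this interval. Pseudogenes or read-through transcripts share 24.8% of the windows of HSPD1 and 27.2% of those of HSPE1.

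**Figure D2:**
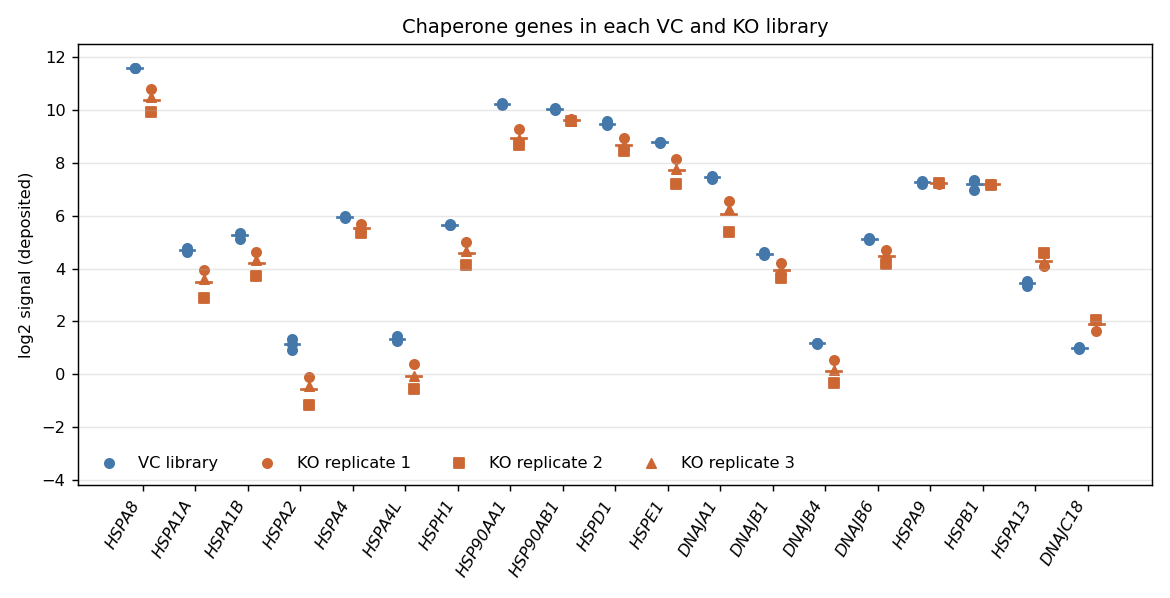
Deposited log2 signal (vertical axis) of 19 members in each library, with VC libraries as blue circles, KO replicates 1, 2 and 3 as orange circles, squares and triangles, and short lines at the group means. KO replicate 1 lies nearest to VC and KO replicate 2 farthest in most genes that fell, HSPA9 and HSPB1 show no separation, and HSPA13 and DNAJC18 lie higher in KO.

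The small heat shock proteins, which hold unfolded clients without ATP, did not move as a group. HSPB1, known as HSP27, stood at 7.30, 6.96 and 7.35 in VC and 7.20, 7.17 and 7.18 in KO, with a log2 fold change of -0.019 and an interval from -0.32 to 0.29. HSPB8, which pairs with BAG3 in selective autophagy, had overlapping groups and a log2 difference of -0.20 (adjusted p 0.482). HSPB6, known as HSP20 and best studied in muscle, fell from -2.0, -3.37 and -2.42 in VC to -4.41, -4.82 and -6.38 in KO, a log2 fold change of -2.61 (SE 0.629, adjusted p 0.0325). Its signal was low in all libraries, and the log2 fold change shrank to -0.19 once 1 was added to each linear signal. HSPB9 had VC values of -4.90, -3.80 and -4.96 and no KO value, and HSPB2 and HSPB7 had 1 value each, in VC.

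The symbol rule also took 3 genes that are not chaperones of these families. HSPB11, a part of the intraflagellar transport complex now named IFT25, was 1.28-fold lower (adjusted p 0.0356). HSPBAP1 did not pass, at a log2 difference of 0.35 (adjusted p 0.0507), nor did HSPBP1, a nucleotide exchange factor of HSP70, at -0.099 (adjusted p 0.465).

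Among the J-domain proteins, the 2 that fell at least 2-fold were DNAJA1 and DNAJB4, both cytosolic partners of HSP70. Of 36 DNAJ genes tested, 11 (30.6%) were lower and 4 (11.1%) higher, with a median log2 fold change of -0.097. Of 21 HSP genes, 15 (71.4%) were lower and 1 (4.76%) higher, with a median of -0.80. Over all genes, 19.8% were lower and 13.1% higher. In the upper 50% of mean signal, 11 of 31 DNAJ genes were lower beside 35.6% of genes, so the DNAJ count lay near that of all genes there. DNAJA1, a main partner of HSPA8 in the cytosol, stood at 7.40, 7.52 and 7.44 in VC and 6.54, 5.39 and 6.24 in KO, a log2 fold change of -1.40 (SE 0.305, adjusted p 0.0264). DNAJA4, a close relative, fell by 0.60 on that scale (adjusted p 0.0227). DNAJA2, the other general cytosolic DNAJA, had a log2 fold change of -0.11 with an interval from -0.28 to 0.067, and the mitochondrial DNAJA3 one of -0.081 with an interval from -0.26 to 0.10. The interval of DNAJA2 does not meet that of DNAJA1, which runs from -2.16 to -0.63.

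Of 8 DNAJB genes, 3 (37.5%) fell and none rose, beside 19.8% and 13.1% of all genes. DNAJB4 stood at 1.15, 1.18 and 1.19 in VC and 0.55, -0.35 and 0.16 in KO, a log2 fold change of -1.06 (SE 0.231, adjusted p 0.0265). DNAJB6, which holds back the aggregation of polyglutamine proteins, stood at 5.12, 5.15 and 5.10 in VC and 4.69, 4.17 and 4.54 in KO and fell by 0.65 (adjusted p 0.0275). DNAJB1, the classical HSP40 that works with HSPA8 and HSPH1 in taking aggregates apart, stood at 4.61, 4.51 and 4.55 in VC and 4.21, 3.65 and 3.99 in KO and fell by 0.61 (adjusted p 0.0367). All KO values lay under all VC values in these 3 genes, beside 36.7% of all genes with full values. The 3 were picked by the test, which favours such separation. DNAJB5 had a log2 fold change of 0.60 with an adjusted p of 0.0503, and its KO values all lay over VC.

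The 24 DNAJC genes, whose J-domain is built into proteins of very different function, went in both directions, with 6 lower (25.0%, beside 19.8% of all genes), 4 higher (16.7%, beside 13.1%) and a median log2 fold change of -0.032, so their counts lay near those of all genes. DNAJC5, the cysteine string protein of secretory vesicles, stood at 5.06, 4.96 and 5.05 in VC and 4.50, 4.49 and 4.48 in KO, a log2 fold change of -0.53 (SE 0.066, adjusted p 0.00984). Its KO values were nearly equal, unlike those of most members that fell. DNAJC5 lies on chromosome 20, whose genes in the upper 50% of mean signal had a median log2 fold change of -0.25 beside -0.084 for other genes, and the part of that shift was not tested. DNAJC6, the auxilin that brings HSPA8 to clathrin coats, fell by 0.66 (adjusted p 0.0132). DNAJC11 and DNAJC15, which sit in mitochondrial membranes, fell by 0.66 and 0.33 (adjusted p 0.0383 and 0.0363), and the spliceosome-associated DNAJC8 fell by 0.30 (adjusted p 0.0476).

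The members that rose were 4 DNAJC genes and HSPA13. DNAJC18, an ER membrane J-protein, stood at 1.01, 0.94 and 1.04 in VC and 1.65, 2.07 and 2.04 in KO, a log2 fold change of 0.92 (SE 0.134, adjusted p 0.0123). HSPA13, an HSP70 relative of the microsomal membrane, stood at 3.36, 3.54 and 3.43 in VC and 4.10, 4.59 and 4.22 in KO, a log2 fold change of 0.86 (SE 0.149, adjusted p 0.0161). DNAJC4 rose by 0.69 (adjusted p 0.0290), the mitochondrial DNAJC30 by 0.49 (adjusted p 0.0182) and DNAJC17, a nuclear protein linked to splicing, by 0.42 (adjusted p 0.0460). All KO values lay over all VC values in each of the 5, beside 22.6% of all genes with full values. These 5 were picked by the test, which favours such separation.

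When the members were divided by where their proteins work, a division made after the values were known, the compartments differed in their counts. Of 31 cytosolic members 19 (61.3%) were lower and none higher, beside 19.8% and 13.1% of all genes. Their median log2 fold change was -0.48. Of 8 mitochondrial members 4 were lower and 1 higher, with a median of -0.21. Of 8 members linked to the ER, none was lower and 2 were higher, with a median of 0.11. The other 6 had log2 fold changes between -0.086 and 0.13. The 1 mitochondrial and 2 ER members called higher were not tested against the 13.1% of all genes. The cytosolic count went to 1, 3, 1 and 1 without VC replicate 1, 2 or 3 or KO replicate 3, and the ER count to 1, 2, 0 and 1. The share of all genes called lower also dropped in these fits, as given above. The difference between compartments was not tested.

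The 5 ER genes left out by the rule were all called higher in KO, beside 13.1% of all genes. Without VC replicate 1, 2 or 3 or KO replicate 3, 2, 3, 2 and 3 of them were called. The median log2 fold change in these fits lay between 1.41 and 1.51. HSPA5, the ER HSP70 known as BiP, stood at 6.0, 6.03 and 6.02 in VC and 8.51, 9.48 and 9.20 in KO, a log2 fold change of 3.05 (SE 0.257, adjusted p 0.0064). DNAJB9, DNAJC3, DNAJB11 and DNAJC10, J-proteins of the ER lumen, rose by 3.13, 1.49, 1.06 and 0.59 (adjusted p 0.00675, 0.0137, 0.0248 and 0.0374). So in the same libraries the HSP70 of the cytosol, HSPA8, was 2.27-fold lower, that of the ER was 8.28-fold higher and that of mitochondria had an interval that included 0.

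**Figure D3:**
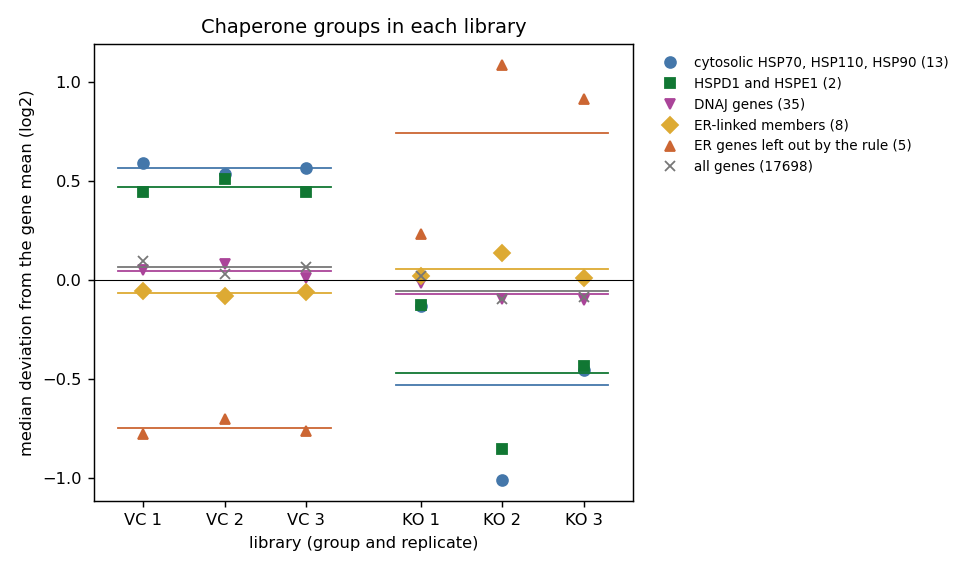
Median over the genes of a group of each library's deviation from the gene's mean over 6 libraries (vertical axis, log2), with 1 point per library and lines at the group means, for genes with 6 values. The 13 cytosolic HSP70, HSP110 and HSP90 genes go from 0.54 to 0.59 in VC to -0.13, -1.01 and -0.45 in KO replicates 1, 2 and 3, while the 5 ER genes go from -0.78 to -0.70 in VC to 0.24, 1.09 and 0.91.

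The KO libraries were graded in the same order for most members that fell. KO replicate 1 was the highest KO library, and so the nearest to VC, in 27 of the 27, and KO replicate 2 was the lowest in 23. The matching shares of all genes called lower were not counted. Over all genes with full values, the median log2 deviation from the gene's mean was 0.019 in KO replicate 1. It was -0.094 and -0.087 in KO replicates 2 and 3. So KO replicate 1 lay nearest to VC beyond the members as well. The full order, replicate 1 over 3 over 2, held for 23 of 27, or 85.2%, beside 64.4% of the 3718 genes with full values called lower. The median SD over these 27 members was 0.043 in VC and 0.282 in KO. Over the 60 members with full values it was 0.055 and 0.182, and over all genes 0.094 and 0.182. So the KO spread of the members as a whole lay near that of all genes. In the ER genes left out by the rule KO replicate 1 was again the library nearest to VC. Whether the libraries differ by clone, culture or handling is not stated in the sources used here, and their part in the result was not tested.

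A list of 17 members taken as induced by heat held 13 lower (76.5%, beside 19.8% of all genes) and none higher, with a median log2 fold change of -1.04. Of these, 9 were at least 2-fold lower. The 13 include HSPA8 and HSP90AB1, described above as constitutive forms. The 4 that did not pass were HSPA6, HSPB1, HSPB8 and DNAJB2. Leaving out VC replicate 1 or 3 or KO replicate 3 left 1 of the 17 called, and leaving out VC replicate 2 left 2, with medians from -1.07 to -0.99 over these 4 fits, so the size of the fall moved little where the calls were lost.

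**Figure D4:**
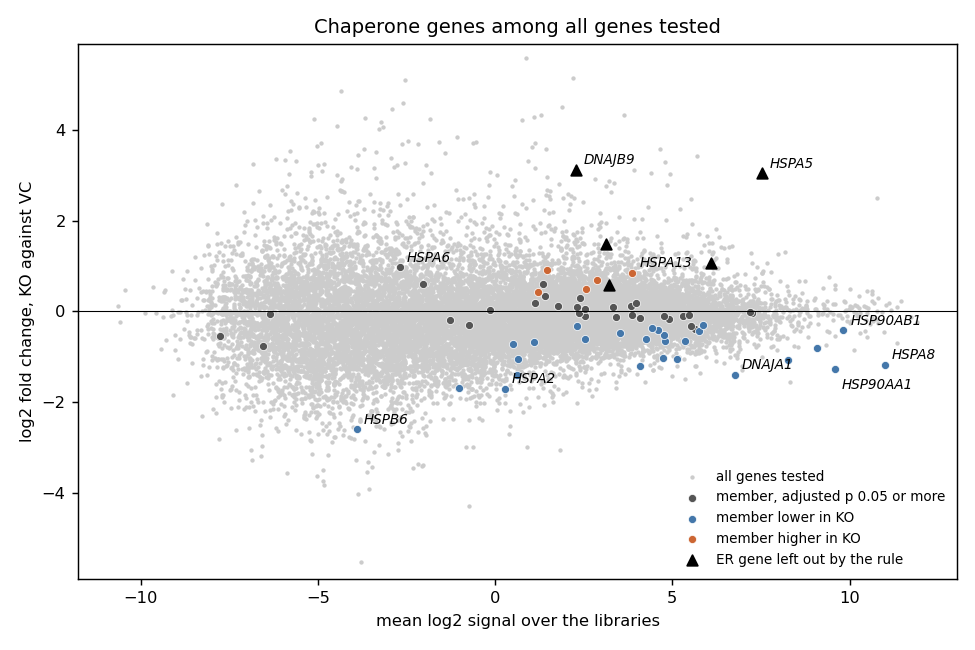
Log2 fold change, KO against VC (vertical axis), against the mean log2 signal over the libraries (horizontal axis) for the 19306 genes tested (light grey), with members lower in KO in blue, members higher in orange, other members in dark grey and the 5 ER genes left out by the rule as black triangles. HSPA8, HSP90AA1 and DNAJA1 lie below the cloud of genes of similar mean signal, and HSPA5 above it.

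The partners of these chaperones outside the symbol rule were read from 3 lists. Among 33 co-chaperones and cofactors of HSP70 and HSP90, 13 (39.4%) were lower and 3 (9.09%) higher, with a median log2 fold change of -0.26. Over all genes, 19.8% were lower and 13.1% higher. In the upper 50% of mean signal, 17 of 32 were lower beside 35.6% of genes. AHSA1, which stimulates the HSP90 ATPase, stood at 7.34, 7.34 and 7.30 in VC and 6.53, 6.04 and 6.36 in KO, a log2 fold change of -1.02 (SE 0.137, adjusted p 0.0108), and lies on chromosome 14 like HSP90AA1. CHORDC1, an HSP90 cofactor, fell by 1.0 (adjusted p 0.0291). Leaving out any VC library or KO replicate 3 left 1 of the 33 called, and leaving out KO replicate 2 left 10.

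The next list held 16 subunits of the cytosolic chaperonin TRiC and of prefoldin and its relatives, which fold actin and tubulin. Of these 16, 6 (37.5%) were lower and 1 (6.25%) higher, with a median log2 fold change of -0.24. In the upper 50% of mean signal, 10 of the 16 were lower beside 35.6% of genes. CCT6A stood apart from its ring partners, at 9.04, 9.17 and 9.03 in VC and 7.63, 7.41 and 7.56 in KO, a log2 fold change of -1.55 (SE 0.090, adjusted p 0.00478). CCT5 fell by 0.53 (adjusted p 0.0173). PFDN4, a prefoldin subunit encoded on chromosome 20, fell by 0.72 (adjusted p 0.00789). Of the 24 genes of mitochondrial protein import and quality control, 4 were lower and 4 higher, with a median of -0.037, and the 16.7% in each direction lay near the 19.8% lower and 13.1% higher of all genes. LONP1, a matrix protease, and GRPEL2, an exchange factor for HSPA9, rose by 0.79 and 0.74 (adjusted p 0.0216 and 0.0286), and TOMM40, the pore of the outer membrane, fell by 0.57 (adjusted p 0.0461). Without VC replicate 1, 2 or 3 or KO replicate 3, the chaperonin and prefoldin list kept 2, 3, 3 and 3 calls and the mitochondrial list 0, 1, 0 and 1, while without KO replicate 1 they had 11 and 13, and without KO replicate 2 they had 6 and 5.

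**Figure D5:**
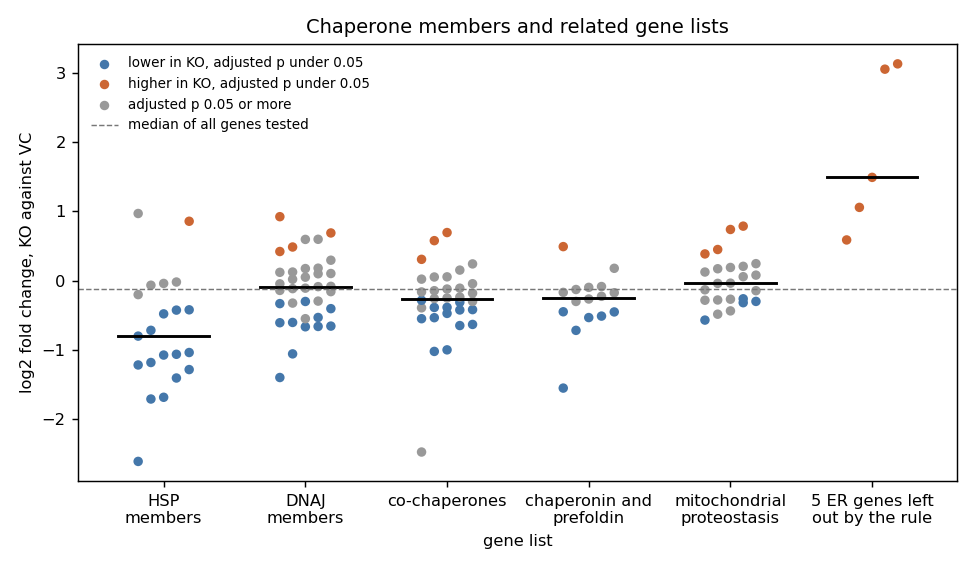
Log2 fold change, KO against VC (vertical axis), of each gene tested in the HSP and DNAJ members, the 3 partner lists and the 5 ER genes left out by the rule, with black lines at the list medians and a dashed line at the median of all genes, -0.13. The HSP members have the lowest median, -0.80, and the DNAJ members, -0.097, and the mitochondrial list, -0.037, lie near that of all genes.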

How the data were processed

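RNA of 3 VC and 3 KO libraries of 143B cells was sequenced by the authors on an Illumina NextSeq instrument from a stranded mRNA kit (labels) or total RNA (methods), and the submitters' processing notes name CASAVA, STAR, Partek and GRCh38.p13. The deposited values are log2 signals per gene symbol, quantile-normalized by the authors between libraries. Empty cells are missing values. The signals were used unchanged with limma 3.58.1 under R 4.3.3. A gene entered the test with 2 or more values per group (19306 genes), KO minus VC, two-sided, without trend, with Benjamini-Hochberg adjustment, and an adjusted p under 0.05 counted as a call. The labels give no batch. The members, lists and tests were chosen with earlier results of these data known. Named were all tested HSP symbols, HSF1, HSF2 and every DNAJA, the 5 called DNAJB and DNAJC genes with the largest change in each direction, and the 3 called genes with the largest change of each list. A co-chaperone gene that this rule takes is not reported here. DNAJC8, DNAJB2, DNAJB5, the untested genes and the genes named by a shared pattern were added after their values were seen, as were the roles and compartments, which come from general knowledge. Chromosomes and promoters came from RefSeq (GRCh38.p14) by symbol, and shared 50-base windows from GENCODE transcripts of HSP and DNAJ genes, longest transcript of each. The test was checked on simulated data with the same spread in both groups. There it recovered 71.5% of 200 changed genes and called 0 when none was changed. The wider spread of the KO libraries was not simulated, so the check does not cover it.

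Alternatives took only the upper 50% of genes by mean signal, genes with 6 values, median-centred libraries, 1 added to the linear signal, trend and robust moderation, no moderation, a replicate block, each library left out, a 2-fold threshold, and members without pseudogenes or without those on chromosomes 8, 14, 18 and 20. Leaving out HSPB11, HSPBAP1 and HSPBP1 was added after the data had been seen.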

Additional observations from a re-analysis of the deposited data

How the results depend on the processing

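Main counts were 32 members called, 5 higher and 27 lower, with a median log2 fold change of -0.29. The median was -0.14 in the upper 50% of mean signal, -0.21 with median-centred libraries, -0.11 with 1 added to the linear signal, -0.18 without members on chromosomes 8, 14, 18 and 20, and -0.34 to -0.20 with each library left out. The last added unit moved the median of all genes from -0.13 to -0.023. Without variance moderation 16 members were called, 3 higher and 13 lower, and with a 2-fold threshold 12, 0 higher and 12 lower. Leaving out each library gave 2 to 34 called, 0 to 6 higher and 2 to 28 lower. The other alternatives kept these counts within 1.5 times, and median-centring gave 7 higher and 24 lower. The replicate numbers did not pair the libraries, since same-numbered deviations correlated at -0.0074 to 0.023 and 3 of 6 libraries correlated best with their own number. With a replicate block 3 members were called, 1 higher and 2 lower, beside 1 co-chaperone, 2 chaperonin and prefoldin genes and 0 mitochondrial genes. Co-chaperone calls (16) were 10 without moderation and 1 to 21 over the libraries left out. Chaperonin and prefoldin calls (7) were 12 in the upper 50%, 14 with 1 added, 12 with trend and robust moderation and 2 to 11 over the libraries left out. Mitochondrial calls (8) were 14 in the upper 50%, 5 with median-centring, 14 with 1 added, 14 with trend and robust moderation, 5 without moderation and 0 to 13 over the libraries left out. Among named genes, calls were lost for 36, 31, 38 and 34 without VC replicate 1, 2 or 3 or KO replicate 3 and for 1 and 9 without KO replicate 1 or 2. Calls were also lost for 20 without moderation, for 36 with the block and for 2 with median-centring. HSF1 and HSPBAP1 gained a call in the upper 50%, among genes with 6 values, with 1 added and with trend and robust moderation. Changes of sign were seen in genes near 0: with median-centring HSPA9 was 0.044, HSPB1 0.065, HSPA12B 0.039 and DNAJA3 0.0024, and HSPA12B was 0.0051 with 1 added. With libraries left out, HSPB1 ranged from -0.14 to 0.055 and HSPA12B from -0.83 to 0.58. The cause of these moves was not tested. Read depth is unknown, so what depth limits could not be computed.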
